A study of Arabidopsis thaliana with 25 samples.

Results

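The genes described here make 2 families of root triterpenes in Arabidopsis thaliana. They are 6 of the 27206 counted genes, chosen by locus identifier, with earlier results of these data known. The 6 are THAS1 (AT5G48010), THAH (AT5G48000), THAD (AT5G47990) and AT5G47980 of the thalianol cluster, and MRN1 (AT5G42600) and CYP71A16 (AT5G42590) of the marneral cluster. Their levels were read in 25 root RNA-seq libraries from 8-week-old plants grown in a greenhouse under short days, in field soil that had received no, medium or high long-term P fertilization (low P, medium P and high P). A low+P regime was low P soil to which 12.6 mg P per pot was added. The mutants were phr1 phl1, which lacks the transcription factors PHR1 and PHL1 of the phosphate starvation response, and phf1, which lacks the PHF1 protein that phosphate transporters need to leave the endoplasmic reticulum. Both are in the Col-0 background and Col-0 was the wild type. There were 2 libraries of phr1 phl1 low P, 1 library labelled phr1 phl1 low+P, 3 each of phf1 low P, phf1 medium P and phf1 high P, 2 of phf1 low+P, 3 each of Col-0 low P, Col-0 medium P and Col-0 high P, and 2 of Col-0 low+P. The columns of the count table carry the group alone, so the libraries of a group are lettered A to C here, and the soil plot of each is not known. By the design each genotype was grown in soil of every plot, so libraries of different groups can share a plot.

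Triterpenes are built from squalene, which the mevalonate pathway supplies and which squalene epoxidases convert to 2,3-oxidosqualene. An oxidosqualene cyclase folds that precursor into a ring scaffold, and cytochromes P450, acyltransferases and reductases then decorate it. In Arabidopsis several of these enzymes sit side by side on a chromosome, and the thalianol and marneral clusters are the textbook examples, known for expression mainly in roots. Thalianol-derived triterpenes are known to shape the bacterial community of the root.

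In the TAIR10.1 annotation both clusters lie on chromosome 5. The thalianol genes span 32819 bases, with AT5G47980 at chr5:19428888-19430517 (plus strand), THAD at chr5:19434758-19436749 (plus), THAH at chr5:19444103-19447866 (minus) and THAS1 at chr5:19456837-19461706 (plus). The marneral genes span 27222 bases, with CYP71A16 at chr5:17031024-17033800 (minus) and MRN1 at chr5:17053453-17058245 (plus). No other counted gene lies between the members of either cluster, and no member overlaps another annotated gene, which matters because the libraries were not stranded. Of 50-base windows of the exons, 3.21% in THAH occur elsewhere in the genome and none in the other 5 members, so reads of these genes were rarely ambiguous.

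The 250 bases before the annotated start were read from the TAIR10.1 genome for each member, because the genes move together across the libraries and because PHR1 is known to bind a site called P1BS (GNATATNC). Shown are the windows of the 2 cyclases and of the P450s with a motif match, on the strand of the gene, with matches to the core of the W-box (the site known for WRKY factors) and to the TATA box in capitals.
THAS1, chr5:19456587-19456836, plus strand: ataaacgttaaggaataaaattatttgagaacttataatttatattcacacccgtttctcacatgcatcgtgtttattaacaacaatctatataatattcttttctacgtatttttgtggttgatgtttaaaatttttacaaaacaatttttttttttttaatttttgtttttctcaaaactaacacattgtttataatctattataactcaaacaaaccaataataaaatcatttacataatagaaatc
THAH, chr5:19447867-19448116, minus strand: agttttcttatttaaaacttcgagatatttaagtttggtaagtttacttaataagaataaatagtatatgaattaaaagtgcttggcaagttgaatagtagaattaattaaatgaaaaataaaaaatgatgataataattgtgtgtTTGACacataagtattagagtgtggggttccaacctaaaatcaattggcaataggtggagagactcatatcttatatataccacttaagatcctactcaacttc
MRN1, chr5:17053203-17053452, plus strand: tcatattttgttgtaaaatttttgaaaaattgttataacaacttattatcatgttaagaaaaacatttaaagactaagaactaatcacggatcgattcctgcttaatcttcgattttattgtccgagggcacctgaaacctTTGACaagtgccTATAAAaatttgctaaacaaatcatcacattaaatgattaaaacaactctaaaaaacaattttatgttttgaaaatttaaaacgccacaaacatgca
CYP71A16, chr5:17033801-17034050, minus strand: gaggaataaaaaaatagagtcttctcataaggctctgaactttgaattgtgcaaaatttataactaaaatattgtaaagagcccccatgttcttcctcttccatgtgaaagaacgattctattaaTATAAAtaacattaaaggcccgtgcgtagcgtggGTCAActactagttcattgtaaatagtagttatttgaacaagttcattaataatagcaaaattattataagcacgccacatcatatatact

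P1BS, searched on both strands, was in 0 of the 6 windows, against 5.44% of the 26709 windows of this length taken before all matched genes. The G-box CACGTG was in 0 of 6, against 6.58%. With shares this low, 0 of 6 says nothing particular about the members. Among the further pathway genes described below, the window of SDR4 (AT3G29250) held a P1BS match, GCATATCC, starting 21 bases before the gene. The W-box core TTGAC, searched on both strands, was in 3 of 6 (THAH, MRN1 and CYP71A16), against 45% of all windows. The TATA box TATAAA, searched on the strand of the gene, was in 3 of 6 (AT5G47980, MRN1 and CYP71A16), against 33.3%. The THAS1 window, 20.8% G and C, held none of the 4 motifs. These are matches of letters only.

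Libraries held 2368981 to 7408960 counts of genes (median 4391517), so 3 counts, the limit that a count of 0 allows, correspond to 0.405 to 1.27 CPM, the counts of a gene scaled to a library total of 1000000. PHR1 was at 31.9 to 37.9 CPM in phr1 phl1 low P and at 73.6 CPM in the single library with the label phr1 phl1 low+P, against 49.0 to 74.3 CPM in Col-0, so that library lies inside the Col-0 range. PHL1 was higher in phr1 phl1 low P, at 79.3 to 95.9 CPM, against 13.9 to 63.6 CPM in Col-0, so its counts do not show a loss of that transcript. PHF1 was at 9.0 to 29.1 CPM in phf1, against 14.8 to 46.9 CPM in Col-0, and these ranges overlap. The root markers PYK10 and TIP2;3 summed to 927 to 4922 CPM, and 6 markers of green shoot tissue to 39.8 to 448 CPM.

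THAS1, the cyclase that makes thalianol, was at 0 and 2.66 CPM in phr1 phl1 low P (libraries A and B), at 0.638, 0.721 and 8.17 CPM in phf1 low P, and at 0.994, 1.53 and 125 CPM in Col-0 low P. In medium P it was at 33.3, 0.276 and 0.173 CPM in phf1, against 0.531, 1.43 and 37.1 CPM in Col-0. In high P it was at 1.69, 7.41 and 2.57 CPM in phf1, against 7.18, 105 and 209 CPM in Col-0. One library stood far above the others of its group in low P and medium P, for both Col-0 and phf1, whereas in high P both Col-0 B and C were above 100 CPM. In low+P it was at 4.42 CPM in the single library with the label phr1 phl1 low+P, at 5.93 and 1.25 CPM in phf1 and at 3.91 and 3.24 CPM in Col-0. Counting error was small beside these gaps: the exact (Clopper-Pearson) 95% interval was 112 to 138 CPM for Col-0 low P C and 0.271 to 2.54 CPM for Col-0 low P A. Such intervals cover counting error only.

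THAH, a P450 that hydroxylates thalianol, was the only one of the 6 genes with counts in all 25 libraries. It was at 5.85 and 20.9 CPM in phr1 phl1 low P, at 5.42, 1.44 and 23.4 CPM in phf1 low P and at 12.4, 17.5 and 85.1 CPM in Col-0 low P. In high P it was at 7.31, 8.82 and 22.1 CPM in phf1, against 17.3, 146 and 225 CPM in Col-0. THAD, the P450 that desaturates the product of THAH, was at 2.34 and 14.0 CPM in phr1 phl1 low P, at 3.19, 1.08 and 22.9 CPM in phf1 low P and at 6.71, 10.1 and 245 CPM in Col-0 low P. The libraries that were high for THAS1 were high for both P450s. In high P, THAD was at 12.7, 19.9 and 26.2 CPM in phf1, against 29.1, 204 and 322 CPM in Col-0. Its phf1 libraries were all below its Col-0 libraries there, as for 6.23% of all genes. AT5G47980, annotated as an acyltransferase of the HXXXD type and known for acylating thalianol intermediates, was the scarcest. It was at 0 and 1.14 CPM in phr1 phl1 low P, at 0.319, 0 and 5.27 CPM in phf1 low P and at 0.248, 2.45 and 53.4 CPM in Col-0 low P, its highest value.

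MRN1, the cyclase that makes marneral, had the widest range in CPM. It was at 0 and 6.45 CPM in phr1 phl1 low P, at 0, 0 and 26.3 CPM in phf1 low P and at 0.994, 1.84 and 51.1 CPM in Col-0 low P. In medium P it was at 82.2, 0.551 and 0.173 CPM in phf1, against 0, 3.27 and 80.4 CPM in Col-0. In high P it was at 0, 6.00 and 0.514 CPM in phf1, against 5.49, 471 and 712 CPM in Col-0. The groups touched in high P through a single pair of libraries, phf1 B and Col-0 A. In low+P MRN1 was at 15.2 CPM in the single library with the label phr1 phl1 low+P, at 13.6 and 0.417 CPM in phf1 and at 0.405 and 10.3 CPM in Col-0. CYP71A16, a P450 that oxidizes the product of MRN1, was at 0.187, 7.59 and 3.86 CPM in phf1 high P, against 12.2, 162 and 238 CPM in Col-0 high P. Here too the phf1 libraries were all below the Col-0 libraries, as for 6.23% of all genes. In low P it was at 0.585 and 4.93 CPM in phr1 phl1, at 0.319, 0 and 10.7 CPM in phf1 and at 2.24, 7.36 and 59.9 CPM in Col-0.

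**Figure D1:**
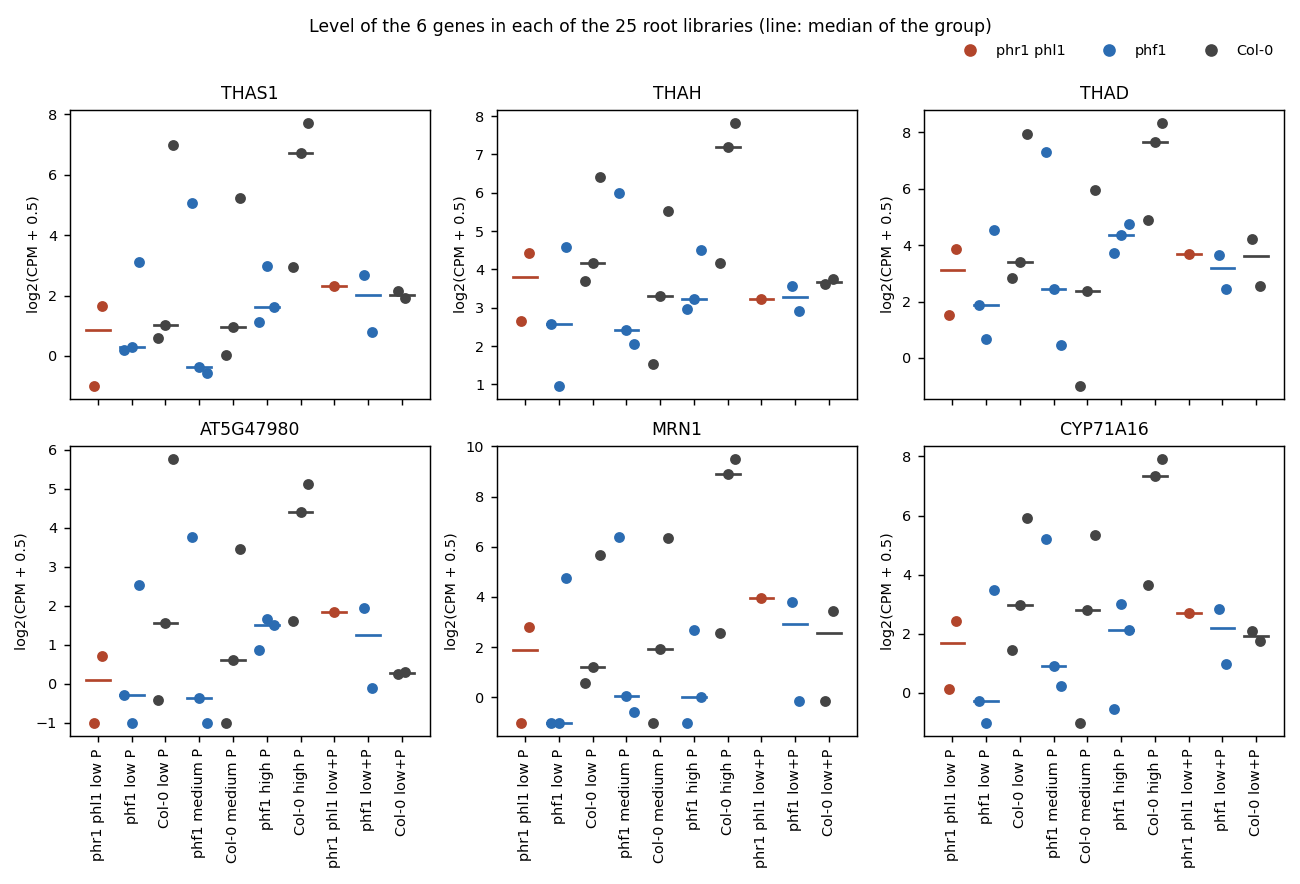
Level of each gene as log2(CPM + 0.5) in every library (points) with the group median (lines). Groups run by P regime, with phr1 phl1 first, then phf1, then Col-0, and the phr1 phl1 low+P point is the 1 library with that label. In Col-0 low P and Col-0 medium P library C is the highest of its group for all 6 genes, and MRN1 reaches 471 and 712 CPM in Col-0 high P B and C.

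Library C was the highest of its group for 6 of 6 genes in phf1 low P, Col-0 low P, Col-0 medium P and Col-0 high P. Library A was the highest for 6 of 6 in phf1 medium P, and in phf1 high P library B was the highest for 4 of 6. The highest level over the 25 libraries was in Col-0 high P C for 5 of 6 genes and in Col-0 low P C for AT5G47980. The THAH maximum was 156 times its minimum. Against 3 counts in the library with the lowest value, the maximum was at least 812-fold higher for MRN1, 405-fold for THAD, 239-fold for THAS1, 220-fold for CYP71A16 and 60.9-fold for AT5G47980.

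Per kilobase of exon, median levels over the libraries were 6.48 CPM per kb for THAD, 5.30 for THAH, 2.67 for CYP71A16, 1.22 for MRN1, 1.0 for THAS1 and 0.805 for AT5G47980. Both cyclases therefore had lower median levels per kilobase than the P450s of their clusters. For MRN1 that median includes 9 of 25 libraries with 3 counts or fewer. MRN1 was above CYP71A16 in Col-0 high P C (267 against 129 CPM per kb) and B (176 against 87.9). It was below CYP71A16 in Col-0 low P C (19.2 against 32.4). At its highest, in Col-0 high P C, MRN1 reached 267 CPM per kb and ranked 245 among 26719 genes of that library, and THAD reached 169 CPM per kb and ranked 468. The sterol cyclase CAS1, which makes cycloartenol in all tissues, had a median of 33.6 CPM per kb and ranged only between 79.4 and 164 CPM.

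In order of group means, Col-0 high P led for all 6 genes. For AT5G47980 it was nearly level with Col-0 low P (19.1 against 18.7 CPM). Means were 107 ± 101 CPM for THAS1, 130 ± 105 for THAH, 185 ± 147 for THAD, 19.1 ± 15.9 for AT5G47980, 396 ± 359 for MRN1 and 137 ± 115 for CYP71A16 (SD, n = 3). Neighbouring groups in that order overlapped in 9 of 9 steps for THAS1, THAH, MRN1 and CYP71A16 and in 8 of 9 for THAD and AT5G47980. The order was thus not separated from the spread between libraries of a group. On the log2 scale (prior count 2) the SD within groups was 3.22 for MRN1, 2.43 for THAS1, 2.41 for THAD, 2.32 for CYP71A16, 2.07 for AT5G47980 and 1.61 for THAH, against a median of 0.48 over 19603 genes. Only 3 of those genes had a larger SD within groups than MRN1, and 48 a larger one than THAS1. The groups took up 32.4% to 43.8% of the variance of the members, against a median of 37.4% for all genes.

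The question put to the groups was whether P supply or the loss of phosphate starvation genes changes these transcripts. A test across the 10 groups (edgeR quasi-likelihood, Benjamini-Hochberg adjustment over 19603 genes) called 0 of the 6 members at an adjusted p below 0.1, with adjusted p between 0.619 and 0.841 and an unadjusted p below 0.05 for 2 of the 6. It called 0.0153% of all genes, and 7.27% had an unadjusted p below 0.05, so a count of 0 says nothing particular about the members. The test across the 6 low P and low+P groups called 0 of 6 members and 0% of 18830 genes, with 0 members and 3.6% of genes at an unadjusted p below 0.05. DESeq2 called 0 members in both, against 812 and 210 of all genes, and in the second it gave a p for 3 of the 6 members, having set aside the others for extreme counts.

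Between phf1 and Col-0 over the 4 regimes, all 6 members had negative log2 fold changes, between -2.20 and -1.25 with a median of -1.70, against a median of -0.02 for all genes. None passed the test, which called 0.0714% of genes (14 of 19603). THAS1 had a log2 fold change of -2.20 (SE 0.98), an unadjusted p of 0.037 and an adjusted p of 0.37, and CYP71A16 had -1.96 (SE 0.88) with an adjusted p of 0.376 by edgeR. THAH stood at -1.36 (SE 0.63), with an adjusted p of 0.393 by edgeR. An unadjusted p below 0.05 was found for 3 of 6 members and 12.4% of all genes. The members moved together over the libraries (Pearson r 0.84 to 0.96 between pairs). Counts of members are therefore not counts of separate observations. The median was -0.93 without Col-0 low P C, -1.0 without Col-0 medium P C and -2.66 without phf1 medium P A. Without Col-0 medium P C the test called 362 genes and again 0 members. In the same test the 6 markers of green shoot tissue all had positive log2 fold changes (median 2.12), 6 of 6 with an unadjusted p below 0.05, and none was called. Their median was 4.08 for phf1 minus Col-0 in medium P, where the sums were 203 to 448 CPM in phf1, against 50.8 to 68.8 CPM in Col-0, and 1.39 in high P. The part of shoot tissue in the values of the members was not tested.

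By regime, the median log2 difference of phf1 from Col-0 was -3.00 for low P soil, 0.01 for medium P, -4.02 for high P and 0.13 for low+P. The contrasts of the last 3 regimes were added after the values were seen, and 0 of 6 members were called in medium P (0.0306% of genes) or low+P (0% of genes), and none of them had an unadjusted p under 0.05, and the 4 regimes were not tested against each other. In high P all 6 were lower in phf1, from -7.43 (SE 2.68) for MRN1 and -5.13 (SE 1.82) for CYP71A16 to -3.15 (SE 1.76) for AT5G47980. An unadjusted p below 0.05 was found there for 4 of 6, against 5% of genes. Because the members moved together over the libraries, these are not 6 separate observations. The smallest adjusted p by edgeR was 0.939, and 0 members were among the 0.0102% of genes called. For THAD and CYP71A16 (2 of 6) every phf1 library was below every Col-0 library, as for 6.23% of all genes. The median in high P was between -4.55 and -3.23 when any single library was left out. The median in medium P turned on single libraries: it was 3.01 without Col-0 medium P C and -4.15 without phf1 medium P A. In low P it was 0.41 without Col-0 low P C.

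In low P, phr1 phl1 differed from Col-0 by a median log2 fold change of -3.38 and phf1 by -3.00, and both comparisons use the same 3 Col-0 libraries. Neither called a member (0 of 6, with 0% and 0.00531% of 18830 genes called), and 1 of 6 members had an unadjusted p below 0.05 in each, against 7.54% and 4.65% of genes. Col-0 low P C decided both values: without it the medians were -0.07 for phr1 phl1 and 0.41 for phf1. Without phr1 phl1 low P B the first was -7.34, and without phf1 low P C the second was -6.31. Between phr1 phl1 and phf1 in low P the median was -0.98, with 0 of 6 members and 0% of genes called and no member under an unadjusted p of 0.05, and it stood at 1.83 without phf1 low P C and -4.37 without phr1 phl1 low P B.

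Added P gave a median of -2.90 in Col-0 low+P relative to Col-0 low P, with 0 of 6 members and 0.00531% of genes called, and 0.19 without Col-0 low P C. In phf1 low+P relative to phf1 low P the median was -0.08, with 0 of 6 members and 0% of genes called, and 2.79 without phf1 low P C. The difference between the genotypes in that response had a median of 2.90 (phf1 minus Col-0) and an adjusted p of 1 for all 6 members by edgeR, with 0% of genes called, and it was -0.30 without Col-0 low P C. In these 3 comparisons 0 members had an unadjusted p below 0.05.

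Long-term fertilization was compared within genotypes, each pair against the same 3 low P libraries. In Col-0 the median was -1.51 in medium P and 1.31 in high P relative to low P, and in phf1 it was 1.54 in medium P and 0.03 in high P. In these 4 comparisons 0 of 6 members were called, against 0.0051% of genes in the first and 0% in the other 3, and 0 members had an unadjusted p below 0.05. Without Col-0 medium P C the first called 989 genes, 0 members among them. DESeq2 called 0 members in these and in all other comparisons. The largest fitted difference was that of MRN1 in Col-0 high P, 4.23 (SE 2.26), with an unadjusted p of 0.0771 and an adjusted p of 0.687 by edgeR. The medians again turned on 1 library. Without Col-0 low P C they were 1.66 in Col-0 medium P and 4.61 in Col-0 high P, without Col-0 medium P C the first was -4.27, and without phf1 medium P A the phf1 medium P value was -2.75. Without phf1 low P C the phf1 values were 4.4 in medium P and 3.16 in high P.

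**Figure D2:**
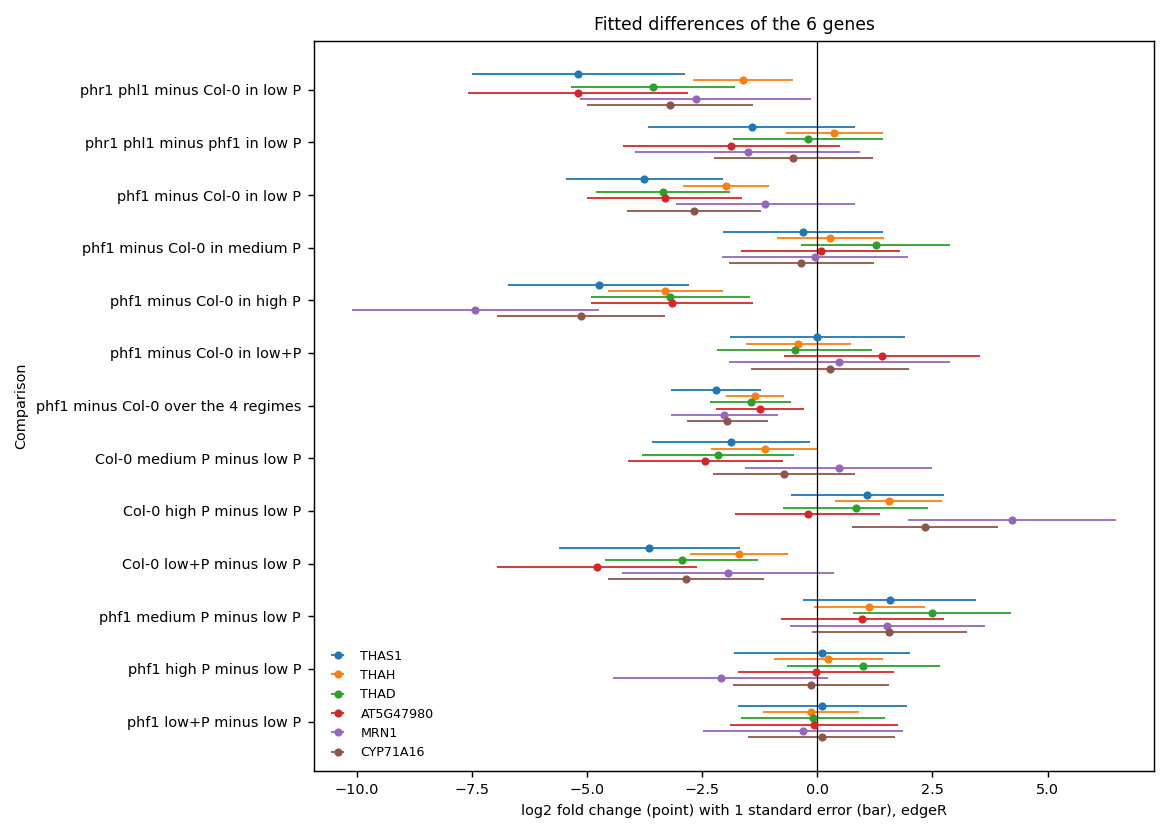
Fitted log2 fold change of each gene (points, the first-named group minus the second) with 1 standard error (bars) in 13 comparisons. The bars are wide throughout, and none of the 6 genes passes the adjusted threshold in any of them. Values for phf1 minus Col-0 in high P lie between -7.43 and -3.15.

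What the members shared was their movement from library to library. Over the 25 libraries the Pearson r of log2 CPM was 0.84 to 0.96 in the 15 pairs of members, and Spearman's rho was 0.77 to 0.93. All 15 pairs had a two-sided permutation adjusted p of at most 2e-05 for both, and 1e-05 is the smallest p that 100000 permutations can give. Pairs within a cluster had r between 0.91 and 0.96 (7 pairs) and pairs across clusters between 0.84 and 0.94 (8 pairs). THAS1 and AT5G47980 were the closest pair (r = 0.96, rho = 0.93), and THAD and MRN1 the least close (r = 0.84, rho = 0.77). Without the 2 libraries farthest from the median, r was 0.80 to 0.94.

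The same held among libraries of one group. Correlating deviations from the group means over the 24 libraries of groups with at least 2, with permutation inside groups, r was 0.86 to 0.97 and the adjusted p at most 0.00054 over the 15 pairs. THAS1 and MRN1, whose clusters lie apart on the chromosome, had r = 0.92 (0.92 within groups), and the reason for this agreement was not tested. Libraries from the same soil plot cannot be recognised and were treated as independent.

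**Figure D3:**
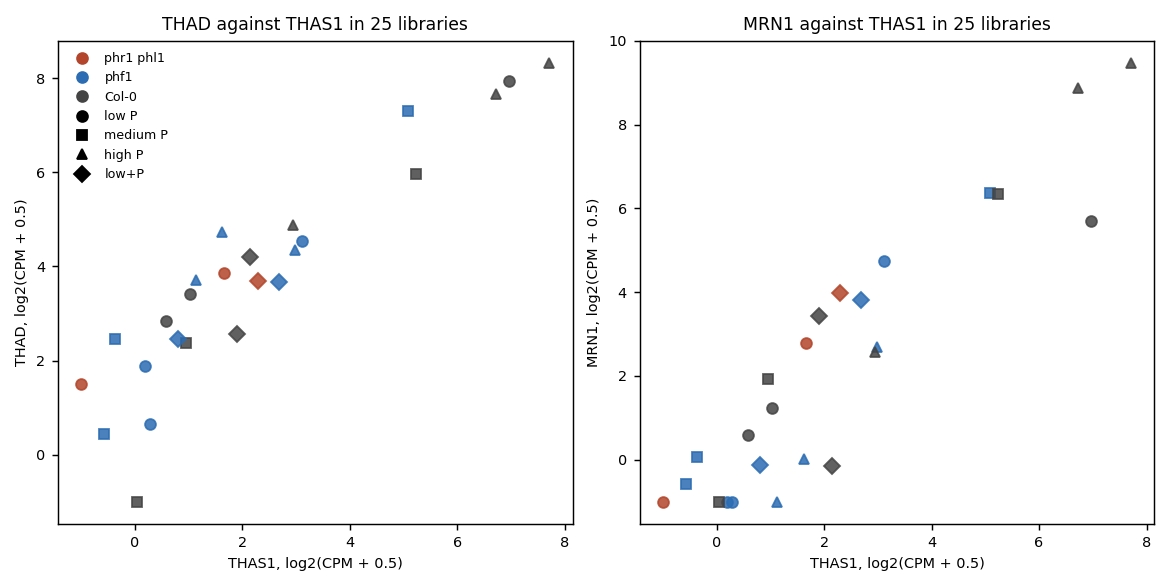
THAD (left) and MRN1 (right) against THAS1, each as log2(CPM + 0.5), in the 25 libraries, with genotype as colour and P regime as symbol. Points follow a rising line in both (r = 0.92 each on the log2 CPM scale), and Col-0 low P C lies below the Col-0 high P libraries B and C for MRN1.

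Ratios between members were read only in libraries with at least 20 counts of both, so libraries where either was low are left out. In 10 such libraries, THAD was 1.54 to 4.73 times THAS1 in CPM (median 2.37) and THAH 0.683 to 3.00 times (median 1.64). In Col-0 low P A, which the limit leaves out, THAH was at 12.4 CPM and THAS1 at 0.994 CPM. The ratios therefore cannot be set beside the range of levels over all 25 libraries. CYP71A16 was 0.334 to 1.26 times MRN1 in 9 libraries (median 0.444). Between clusters the ratio moved more: MRN1 was 0.410 times THAS1 in Col-0 low P C and 0.810 times in phf1 high P B, but 4.49 and 3.40 times in Col-0 high P B and C, a 10.9-fold span over 9 libraries. The SD of that log2 ratio was 1.12. Within clusters it was 0.56 for THAD to THAS1, 0.66 for THAH to THAS1, 0.72 for CYP71A16 to MRN1 and 0.74 for AT5G47980 to THAS1 (6 libraries). The 9 libraries were thus not alike in the balance of THAS1 and MRN1, the only pair compared between clusters.

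Further genes of the same pathways, on other chromosomes or beside the clusters, moved with them. SDR4 (AT3G29250), a short-chain dehydrogenase on chromosome 3 known for a reduction step in thalianol metabolism, had r = 0.88 with THAS1 and ranged between 0 and 205 CPM. AT1G66800, on chromosome 1 and annotated as an NAD(P)-binding protein of the Rossmann fold, also had r = 0.88. AT5G47950, an acyltransferase of the HXXXD type in the same neighbourhood as the thalianol genes, had r = 0.79, and CYP705A12 (AT5G42580), the P450 next to CYP71A16, had r = 0.90 with both THAS1 and MRN1. Adjusted permutation p over the 35 pathway genes compared was 5e-05 for all 4 (rho 0.71 to 0.88), and r was 0.73 to 0.85 without the 2 farthest libraries and 0.82 to 0.90 within groups. In the test of phf1 against Col-0 over the 4 regimes these 4 genes were also lower in phf1 and uncalled, with a median log2 fold change of -0.82 for the 3 thalianol genes and -1.47 for CYP705A12.

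Over the 25 libraries, the other genes flanking the clusters had lower values. The other 5 counted genes flanking the thalianol cluster had r between -0.37 and 0.30 with THAS1, among them RABA4C (0.07) and GFA2 (-0.37), with adjusted p of at least 0.18 over the 11 flanking genes. Within groups GFA2 had r = -0.76 (adjusted p = 0.0043). Beside the marneral cluster AT5G42570, AT5G42610 and AT5G42620 had r between -0.12 and 0.34 with MRN1, while ATS (AT5G42630), a transcription factor known from ovule development, had r = 0.60 (rho 0.72, adjusted p = 0.0057). Within groups, r with MRN1 was 0.83 for ATS (adjusted permutation p = 0.0014), near the 0.89 of CYP705A12. It was 0.59 for AT5G42610 (adjusted permutation p = 0.054), -0.22 for AT5G42570 and 0.05 for AT5G42620.

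Upstream enzymes followed in part. Of 18 tested genes between mevalonate synthesis and squalene epoxide, 12 had r of at least 0.5 with THAS1 and an adjusted permutation p below 0.05 (median r 0.62), and 12.8% of all genes had r of at least 0.5. SQE1, the main squalene epoxidase, had r = 0.83, SQP2, another epoxidase, 0.81, and ACAT2 and HMGS, which start the mevalonate pathway, 0.78 each (0.74, 0.72, 0.69 and 0.66 without the 2 farthest libraries). ACAT2 was at 237 CPM in Col-0 low P C, against 25.1 CPM in library A and 37.7 CPM in library B of that group. Of 10 tested other cyclases 4 met both limits, and CAS1 (0.51, and 0.34 without the 2 farthest libraries) was among them. Within groups, 3 of the 10 had an adjusted p below 0.05. In phf1 minus Col-0 over the 4 regimes 0 of the 18 upstream genes were called, with 17 lower and 1 higher in phf1 and a median log2 fold change of -0.26, against -0.02 for all genes.

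**Figure D4:**
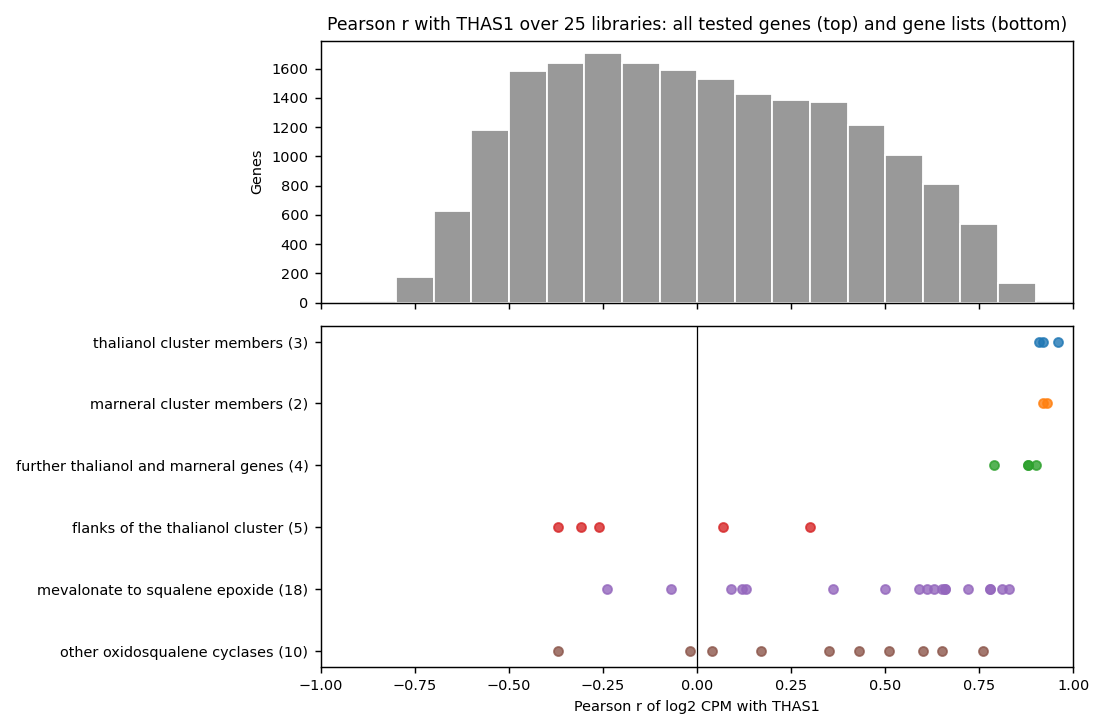
Top, Pearson r with THAS1 of the other 19602 tested genes over 25 libraries (bars, number of genes in steps of 0.1). Bottom, r of single genes (points) by list. The 5 other members lie at 0.91 to 0.96, above most of the upstream genes. The flanks of the thalianol cluster other than AT5G47950 lie at -0.37 to 0.30, around the median of all genes (-0.02). AT5G47950, which also flanks that cluster (r = 0.79), is plotted with the further thalianol and marneral genes.

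Across the table, 148 of 19602 genes (0.755%) had r of at least 0.8 with THAS1. Ranked by r with the mean z-score of the 4 thalianol genes, CYP71A16 came first of 19599 genes (0.95) and MRN1 number 10 (0.91). The 8 closest genes that are no members were CYP705A12 and SDR4 (0.94 each), the serine carboxypeptidase-like scpl1, the P450 CYP718 and the lipid-recognition protein AT5G23840 (0.92 each), and AT1G66800, the major facilitator AT3G45710 and the dirigent-like AT4G11210 (0.91 each). For the marneral genes they were CYP705A12 (0.95), CYP718 (0.94), scpl1, the lipid-transfer protein AT4G22666, AT1G66800 and AT1G14960 (0.92 each), and AT3G50640 and CYP705A30 (0.91 each). The lists share 4 genes. These values describe 25 libraries and were given no test.

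Markers of root cell types moved with the members too. The sum of 5 root hair markers (such as COBL9 and EXPA7) had r = 0.72 with THAS1 and 0.78 with MRN1, and that of 5 endodermis markers (CASP1 to CASP5, of the Casparian strip) 0.71 and 0.73. Adjusted permutation p over the 12 relations of this kind was at most 0.00036 for these 4 (rho 0.76 to 0.82), r was 0.65 to 0.79 without the 2 farthest libraries, and 0.67 to 0.78 within groups. The 5 markers of dividing cells had r = 0.53 with THAS1 and 0.59 with MRN1 (adjusted p = 0.013 and 0.0043), while the 2 general root markers (0.21 and 0.29), the green shoot markers (-0.33 and -0.27) and library size (-0.20 and -0.15) had adjusted p of at least 0.19.

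Root hair markers summed to 447 CPM in Col-0 low P C, against 0 CPM in library A and 3.98 CPM in library B of that group, and all 5 were at 0 in 5 of 25 libraries. Endodermis markers summed to 350 CPM in Col-0 low P C, against 11.2 CPM in library A and 13.2 CPM in library B. In low P both lists, like the members, had negative medians in the mutants relative to Col-0, and 0 of their genes were called. For phr1 phl1 minus Col-0 the median log2 fold change was -4.31 for the root hair markers and -4.80 for the endodermis markers, beside -3.38 for the members. For phf1 minus Col-0 it was -2.34 and -2.64, beside -3.00 for the members. For Col-0 low+P minus low P it was -5.62 and -3.18, beside -2.90 for the members. In high P the medians for phf1 minus Col-0 were -0.45 and -0.32, beside -4.02 for the members, and the sums overlapped between genotypes: root hair markers were at 0.771 to 167 CPM in phf1, against 50.2 to 149 CPM in Col-0, and endodermis markers at 17.8 to 214 CPM in phf1, against 95.5 to 126 CPM in Col-0. Library B of phf1 high P had sums of 167 and 214 CPM, and MRN1 at 6.00 CPM. Col-0 high P B had sums of 149 and 126 CPM, and MRN1 at 471 CPM. For phf1 minus Col-0 in high P the 2 general root markers had a median of -1.22, 2 of 2 lower. The 5 markers of dividing cells had a median of -0.10, 3 lower and 2 higher. In bulk roots, fewer cells of a type and less RNA per cell cannot be told apart, and the part of cell type make-up in the differences between groups was not tested.

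**Figure D5:**
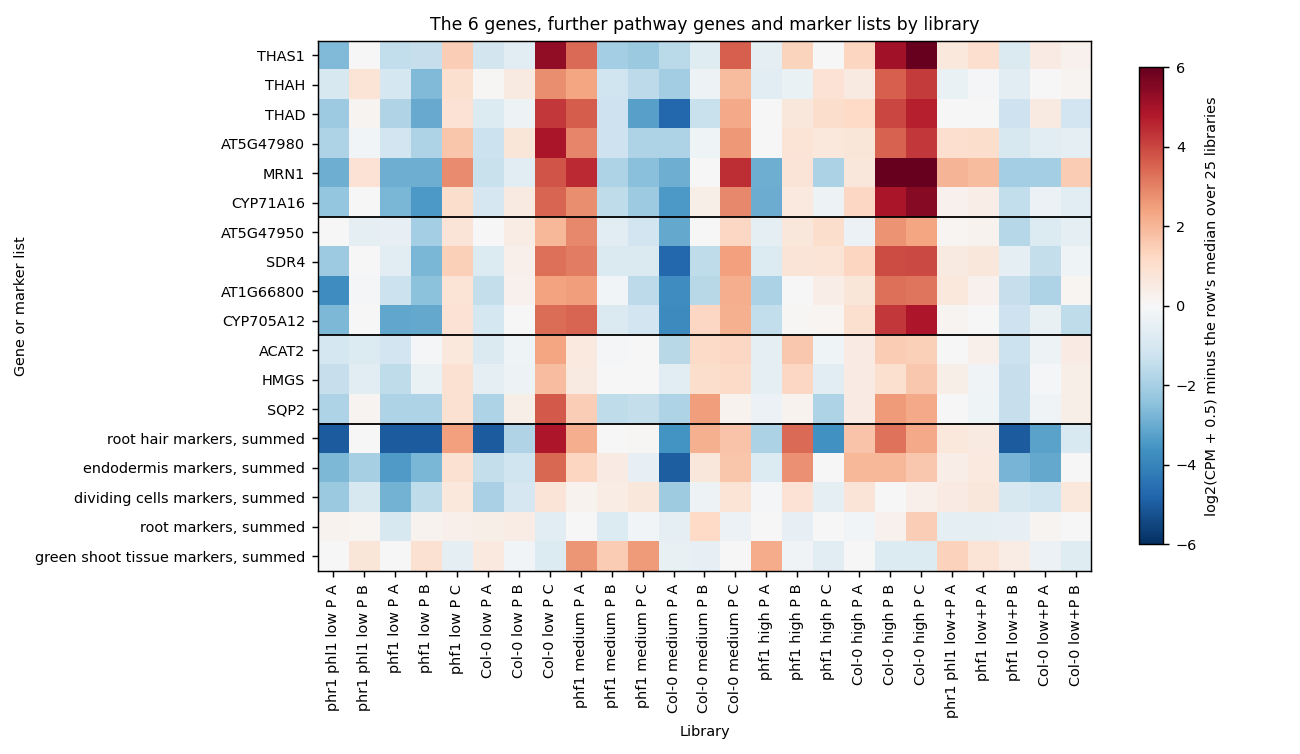
Log2(CPM + 0.5) minus the median of the row over 25 libraries, for the 6 genes (top block), 4 further thalianol and marneral genes, 3 genes that supply squalene epoxide, and marker lists summed (bottom block), with libraries ordered by P regime and, inside it, phr1 phl1, phf1 and Col-0. Red columns such as Col-0 low P C, phf1 medium P A, Col-0 medium P C and Col-0 high P B and C run through the upper 2 blocks, and root hair and endodermis markers are high in most of them.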

How the data were processed

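The deposited table holds raw gene counts for 25 root libraries. Per the labels, the authors made non-stranded poly(A) libraries, and the submitters' processing notes name bcl2fastq 2.20.0, FastQC 0.11.7, Trimmomatic 0.36, HISAT2 2.1.0 and featureCounts of Subread, on TAIR10. CPM was computed from these counts over all genes, without length, and per kilobase of exon where median and highest levels of genes are compared. The ratios between members are of CPM and were not corrected for length. Tests used edgeR 4.0.16 in R 4.3.3 (TMM factors, filterByExpr, quasi-likelihood test, Benjamini-Hochberg over all genes tested, adjusted p below 0.1), with 13 libraries for low P and low+P comparisons and 25 for the others. DESeq2 1.42.0, RLE factors, other filters and leaving out each library were alternatives. The common biological coefficient of variation was 0.426 and 0.421. On simulated data, 53% of 200 genes changed by 2 on the log2 scale were recovered for phf1 minus Col-0 in low P and 60.5% for Col-0 high P minus low P. Those 200 genes were drawn at random from all tested genes. In the fit of 25 libraries the coefficient per gene had a median of 0.324, against 0.919 (THAH) to 1.9 (MRN1) for the members. The shares recovered therefore do not apply to the members. P-values measure the spread between these libraries. No 2 libraries of a group agreed within sampling noise (lowest median chi-square per gene 1.24, against 0.455 from sampling alone). Named genes were the 6 members, the listed pathway, flanking and marker genes, and the 8 genes most like each cluster, with up to 4 named per list by level or fold change, and others singled out after their values were seen. Members and lists were chosen with earlier results of these data known. Coordinates and sequences come from NCBI RefSeq's TAIR10.1 by locus identifier (26719 of 27206 matched).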

Additional observations from a re-analysis of the deposited data

How the results depend on the processing

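The count of members called was 0 of 6 in each of the 16 tests, by edgeR and DESeq2 and under each alternative run, single libraries left out included (in low P and low+P, DESeq2 gave a p for 3 of the 6); the smallest adjusted p of a member was 0.113 (THAH, DESeq2, test across the 10 groups). Counts over all genes depended on the tool: DESeq2 called 29 genes for phf1 minus Col-0 in low P, 182 for phr1 phl1 minus Col-0, 25 for phr1 phl1 minus phf1, 285 for Col-0 low+P minus low P, 14 for the genotype difference in that response, 502 and 125 for Col-0 medium P and high P minus low P, 2 and 2 for phf1, 586 for phf1 minus Col-0 over the 4 regimes, and 392, 13 and 3 for that difference in medium P, high P and low+P, where edgeR called 0 to 14. By edgeR the test across the 10 groups called 5 genes with RLE factors and 6 without a filter, against 3, and phf1 minus Col-0 over the 4 regimes called 7 with either and 3 at an adjusted p below 0.05, against 14. Col-0 medium P C moved all-gene counts most: without it edgeR called 111 genes across the 10 groups, 989 for Col-0 medium P minus low P, 959 for phf1 minus Col-0 in medium P and 362 over the 4 regimes, where 199 were called without phf1 high P B and 44 without Col-0 high P B. The median r of the 15 pairs was 0.92, 0.91 to 0.94 with any library left out, and 0.88 to 0.93 by ranks, within groups, with RLE factors or with a prior count of 0.5, an alternative chosen after seeing the data. AT5G47980 in Col-0 high P minus low P was -0.21, with a range of -0.92 to 3.80 when single libraries were left out, and changed sign without Col-0 low P C (3.80) and without Col-0 high P A (0.30). Of the 8 genes most like the thalianol genes, 5 remained by rank correlation and 3 within groups, and of those for the marneral genes 6 and 4. No paired analysis was possible because the columns carry neither a replicate number nor a plot. Libraries with 3 counts or fewer (9 of 25 for MRN1 and for AT5G47980) bound low levels only, and groups of 1 to 3 libraries with an SD above 2 on the log2 scale left even differences of 4 uncalled.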

Other observations

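A smaller triterpene locus was detected in few libraries. PEN3 (AT5G36150), an oxidosqualene cyclase, and CYP716A2 (AT5G36140), a P450 next to it, were at 12.3 and 27.5 CPM in Col-0 low P C, 5.77 and 12.6 CPM in Col-0 medium P C, 4.22 and 11.4 CPM in Col-0 high P A, 3.96 and 27.4 CPM in Col-0 high P C, and 1.42 and 7.80 CPM in phf1 medium P A. PEN3 had 0 counts in 17 of 25 libraries and CYP716A2 in 12. Col-0 high P B, where MRN1 was at 471 CPM, had 0.228 and 0.911 CPM of the pair, so a library high for one triterpene cluster was not high for all. These genes were singled out after their values were seen.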
